A study of Homo sapiens with 2 samples.

Results

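The MECOM locus was examined in a peak list from a chromatin immunoprecipitation and sequencing experiment in SKOV-3, an established human ovarian carcinoma cell line. Its members were the listed peaks with a midpoint on chromosome 3 between 170200000 and 170900000 (build hg18), the position given for the gene, and 7 of the 6943 listed peaks met this rule. All 7 lay in band 3q26.2. That the window is MECOM was taken from the rule, since an hg18 gene annotation was not used here. The series has 1 library from Flag ChIP and 1 from input chromatin. Both came from cells transfected with a plasmid (pCMV) expressing Flag-tagged Evi1Δ324 and harvested 3 days later, and neither has a replicate. Per the labels' protocols, chromatin was fixed with 1% formaldehyde for 10 minutes and precipitated with the Flag M2 antibody, and DNA fragments of 200 to 300 bp were selected. The input library was not analysed here, and untransfected cells were not analysed here, so every value below describes 1 ChIP library. Intervals cover counting error only.

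MECOM encodes EVI1, a zinc finger transcription factor with a pair of separate zinc finger domains and a region between them that recruits corepressors of the CtBP family. Transcripts that begin at the upstream MDS1 exons give the longer MDS1-EVI1 protein, which adds a PR domain, while transcripts that begin at the EVI1 exons do not. The gene is known for rearrangement in myeloid leukaemia and for extra copies of 3q26 in ovarian carcinoma. Evi1Δ324 is a shortened form that lacks part of the first zinc finger domain. Its coding sequence comes from the gene examined here or from the same gene of another species. A plasmid carries coding sequence without introns. Reads of plasmid DNA that match the human sequence therefore align to the gene's exons in the reference. The species of the Evi1 sequence in the plasmid is not given in the labels.

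The locus held a short series of very dense peaks and nothing else. The 7 peaks had 221 to 707 tags each (median 320), where a tag is a sequence read counted in the peak, against a median of 5 in the other 6936 peaks. Every one of them had at least 100 tags, a depth reached by 0.691% of all listed peaks. All 7 also passed 200 tags, as did 0.475% of the list, and 20 tags, as did 3.01%. Their deposited folds were 1.48 to 2.34, the lowest end of the list, where the median was 14.7. The fold is a deposited column without a header, read here from its values as the ratio of a peak to a background. All 7 had a fold under 2.5, as did 0.115% of the list, while a fold under 5 was found in 0.677%. The locus thus combined deep tag counts with low deposited folds, 7 of the 8 lowest in the list.

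Since MECOM is read from the minus strand, the peaks are numbered here in the direction of transcription, from the highest coordinate to the lowest. Peak 1 (chr3:170328254-170328594) was 341 bp wide and had 382 tags (exact Poisson 95% interval 345 to 422) with a fold of 2.34. Peak 2 (chr3:170315853-170316261) was the widest, at 409 bp, with 707 tags (interval 656 to 761) and a fold of 1.48. These were the peaks nearest the 5′ end of the gene, and peak 2 had the most tags of the 7 and the lowest fold of all listed peaks.

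Peak 3 (chr3:170302529-170302762) was 234 bp wide, with 281 tags (interval 249 to 316) and a fold of 2.15. Peak 4 (chr3:170295541-170295765) was 225 bp wide, with 298 tags (interval 265 to 334) and a fold of 1.94. The tag intervals of these neighbours overlapped.

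Peak 5 (chr3:170290465-170290735) was 271 bp wide and had 428 tags (interval 388 to 471) with a fold of 1.75. Peak 6 (chr3:170289421-170289682) was 262 bp wide and had 320 tags (interval 286 to 357) with a fold of 2.25. Although peaks 5 and 6 differed by only 9 bp in width, their tag intervals did not overlap. Peak 7 (chr3:170285368-170285543), nearest the 3′ end, was the narrowest at 176 bp and had the fewest tags, 221 (interval 193 to 252), with a fold of 2.09.

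Tags largely followed width among the 7 peaks. The widest peak was 2.32 times as wide as the narrowest and had 3.20 times its tags. Across the 7 peaks, which share 1 library and are not replicates, Pearson's r between width and tags was 0.911 and Spearman's rho was 0.929. Over the 41 other peaks with at least 100 tags these were 0.814 and 0.835, so the relation was not particular to MECOM. Expressed per length, the tag density was 1120 per kb in peak 1, 1729 in peak 2, 1201 in peak 3 and 1324 in peak 4. It was 1579 per kb in peak 5, 1221 in peak 6 and 1256 in peak 7. Density therefore varied 1.54-fold over the locus. Peaks 2 (interval 1604 to 1861 per kb) and 5 (1433 to 1736) stood above peaks 1, 3 and 6, whose intervals reached at most 1363 per kb. For peaks 4 and 7 the upper limits were 1484 and 1433 per kb, so peak 2 was above both, while peak 5 overlapped peak 4 and barely cleared peak 7.

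**Figure D1:**
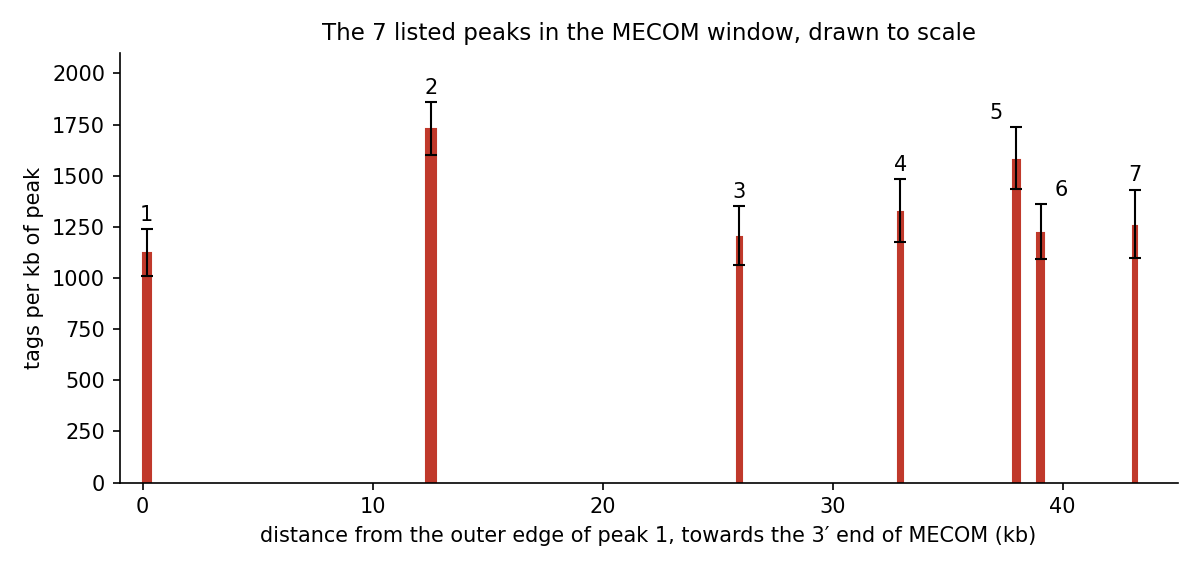
Tags per kb of peak (vertical axis) for the 7 listed peaks of the MECOM window, placed by distance in kb from the outer edge of peak 1 towards the 3′ end of the gene (horizontal axis), with each bar as wide as its peak and error bars giving exact Poisson 95% intervals. Narrow bars between 1120 and 1729 tags per kb are separated by long stretches with no listed peak, and peaks 2 and 5 are the highest.

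The fold moved opposite to the density. Peak 2, the densest, had the lowest fold and peak 1, the least dense, the highest. Across the 7 peaks Pearson's r between tags per kb and fold was -0.979 and Spearman's rho was -0.964. The points share 1 library and 1 unknown way of setting the background, so this is a description of the deposited values. A background index, tags per kb divided by fold, was 479 in peak 1, 1168 in peak 2 and 902 in peak 5, and 543 to 683 in peaks 3, 4, 6 and 7. Over the list its median was 2.81. The index was highest in the densest peaks, and it contains the density by construction.

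The peaks were spread over 43.2 kb (chromosome 3, 170285368 to 170328594) and filled 4.44% of it. In transcript order, the empty stretches between neighbouring peaks were 11992, 13090, 6763, 4805, 782 and 3877 bp. The gaps between the first 3 peaks were thus the longest, and peaks 5 and 6 formed a close pair. The list held 0 other peaks inside any of these gaps. Of the 7 widths, 4 lay within the selected fragment range of 200 to 300 bp, 1 was below it and 2 above. The median width over the list, 126 bp, was below that range, and the share of all listed peaks within it was not analysed here. Such a row of narrow peaks raises the question of whether each lies on a coding exon of EVI1, as reads of the transfected sequence would. Exon positions, exon lengths and the exons without a peak were not analysed here, so the match of spacing and width to exons was not tested. Reads from plasmid and from the chromosomal gene cannot be told apart in the list.

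No peak was listed in the remaining 656.8 kb of the window. On the 5′ side of peak 1 the window went on for 571.4 kb without a peak, and on the 3′ side of peak 7 for 85.4 kb. RefSeq's table of gene starts (GRCh38.p14) lists 3 starts for MECOM, the first 516.2 kb upstream of the second and the second 932 bp upstream of the third. That first distance is 11.9 times the whole span of the peaks. If the starts are about as far apart in hg18, the listed peaks cannot include both the far upstream start and the downstream pair. Which of them, if any, lies near a peak was not analysed here, because the builds differ.

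The nearest peaks outside the locus were far less dense than its members. On the 3′ side the next peak (chr3:170000501-170000624) was 284.7 kb away, with 5 tags and a fold of 19.4. On the 5′ side the next (chr3:170973144-170973482) was 644.5 kb away, with 17 tags and a fold of 7.57. The latter was almost as wide as peak 1, at 339 against 341 bp, but had 50.1 tags per kb against 1120. Its tags and width were above, and its fold below, the medians of the peaks outside the window (5 tags, 126 bp and 14.7). Within 1000 kb of the start of peak 1 there were 6 other peaks with 5 to 17 tags and background indices of 2.08 to 6.62, all far below the 7 peaks of MECOM. Such empty flanks are common on this chromosome, where 96 of the 329 gaps between neighbouring peaks exceeded 644.5 kb. In RefSeq's gene order the protein-coding neighbours of MECOM are GOLIM4 on the 3′ side and ACTRT3 and MYNN on the 5′ side.

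**Figure D2:**
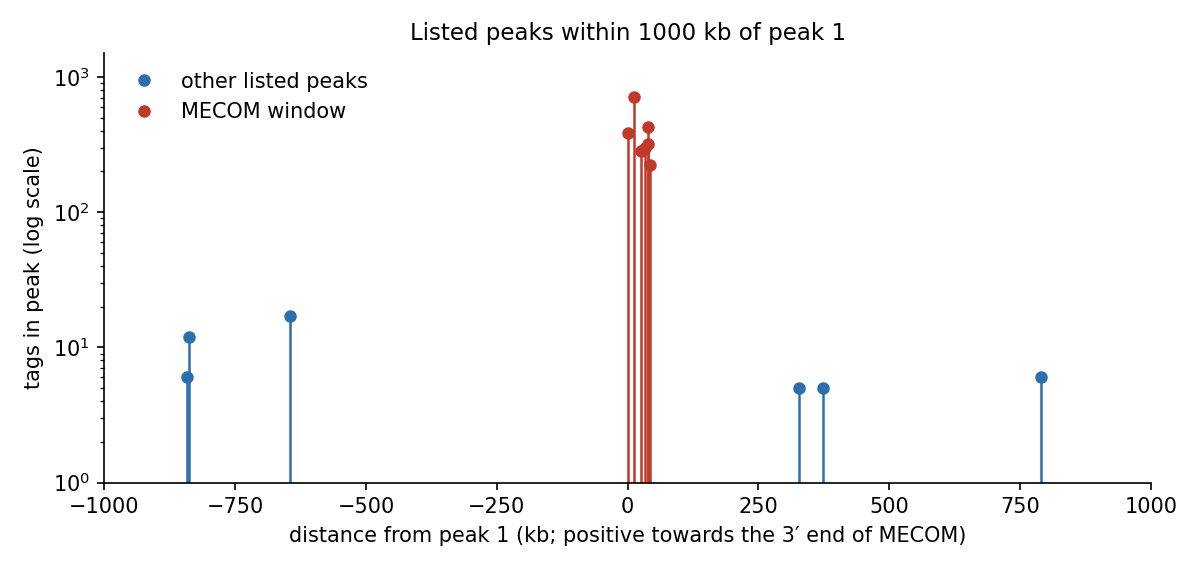
Tags in each listed peak (vertical axis, log scale) by distance in kb from peak 1 (horizontal axis, positive towards the 3′ end of MECOM), with members in red and other listed peaks in blue. The 7 members have 221 to 707 tags, and the 6 other peaks within 1000 kb have 5 to 17.

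The 7 peaks held a larger share of the tags than of the listed sequence. They covered 1918 bp, 0.189% of the listed width, and held 2637 of the 76115 tags, or 3.46% (exact Clopper-Pearson 95% interval 3.34 to 3.60%). At least 1000 tags per kb were found in 0.115% of the list, which was the 7 MECOM peaks and 1 other, a centromeric peak of 6p11.1 (chr6:58884056-58888135) with 5144 tags over 4080 bp, 1261 tags per kb and a fold of 1.66. That peak was 9.98 times as wide as the widest member and 23.2 times as wide as the narrowest. It was also the only peak outside MECOM with a fold under 2.5. The next densest, in 1p22.2 (chr1:91625360-91625737), had 810 tags per kb and a fold of 2.85.

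Peaks elsewhere that had as many tags were wider. Of the 16 other peaks with 221 to 707 tags, 15 were wider than the widest MECOM peak, with a median of 1457 bp against 262 bp. The exception was the peak in 1p22.2, at 378 bp. Conversely, 668 other peaks had widths of 176 to 409 bp, with a median of 11 tags and at most 306, in the peak of 1p22.2 again. The 6 deep peaks picked for a fold of 10 or more were 783 to 1697 bp wide and had 83.0 to 328 tags per kb. Neither their widths nor their densities overlapped those of MECOM.

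**Figure D3:**
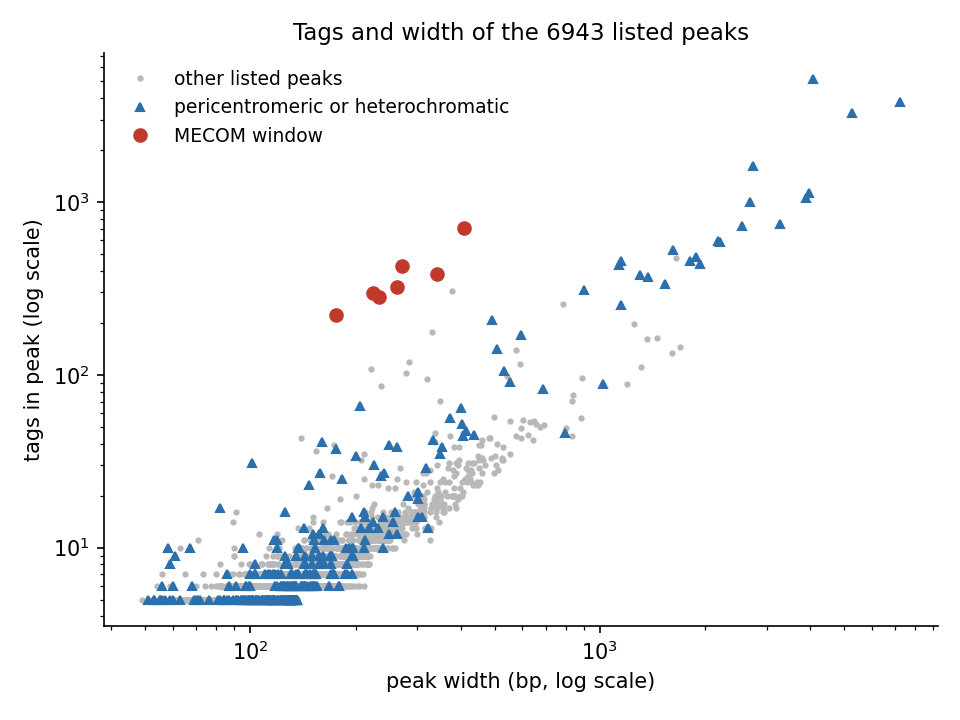
Tags (vertical axis) against width in bp (horizontal axis), both on log scales, for all 6943 listed peaks, with the MECOM window in red, pericentromeric or heterochromatic peaks in blue and the rest in grey. At widths of 176 to 409 bp the 7 MECOM peaks lie above the other peaks, except the peak in 1p22.2 (378 bp, 306 tags). That peak has more tags than peaks 3, 4 and 7.

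Pericentromeric and heterochromatic sequence held 26 of the 41 other deep peaks. These shared the low folds of MECOM in part, with a median of 4.07 (range 1.66 to 6.33) against 2.09 (1.48 to 2.34). They differed in width, 492 to 7212 bp against 176 to 409 bp, with no overlap. Their median density was 284 tags per kb against 1256. Sequences not placed on a chromosome have no band and were counted outside this group. A deep peak of chr10_random was among them, with 471 tags over 1654 bp and a fold of 4.04. Runs of at least 3 deep peaks with neighbours within 20 kb occurred at 4 places, of which MECOM was the only one outside pericentromeric sequence. The other runs of deep peaks, all pericentromeric, were in 10q11.1, with 4 peaks, and at 2 places of 4p11, with 6 and 4. Peaks filled 36.1 to 50.7% of those runs, compared with 4.44% at MECOM. With 20 tags or more in place of 100, there were 7 runs outside pericentromeric sequence. MECOM thus stands alone only among runs of deep peaks.

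A further 5 deep peaks of fold under 10 outside such sequence were under 500 bp wide, in 1p22.2, 5q13.2, 8q13.3, 11q14.1 and 17q12, a group picked after the values were seen. They were the most like MECOM in shape, at 221 to 378 bp. Their tags (102 to 306) reached into the range of MECOM, but their densities (366 to 810 per kb) and folds (2.85 to 5.18) did not overlap it. Each stood alone, the nearest peak of any depth being 66.1 to 710 kb away. The peak in 17q12 (chr17:30502218-30502496) had 102 tags over 279 bp and a fold of 3.34. The band also holds the receptor tyrosine kinase gene ERBB2, but which peak of the band lies nearest that gene was not analysed here. The other peaks of 17q12 with at least 20 tags (chr17:35031851-35032191 and chr17:35109512-35109906) had 20 and 32 tags and 58.7 and 81.0 per kb.

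**Figure D4:**
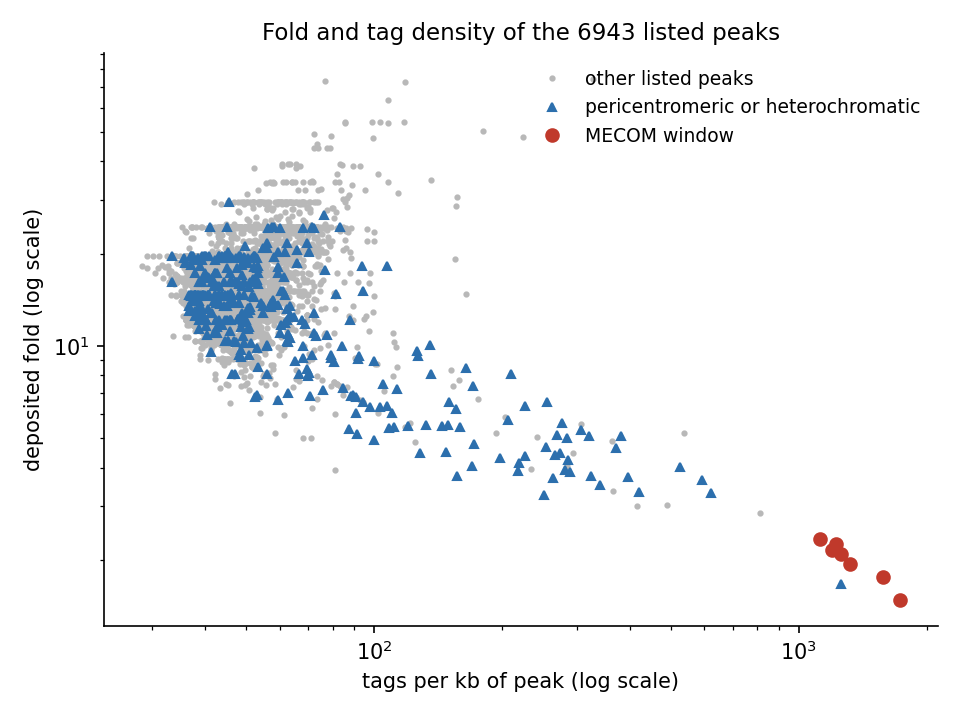
Deposited fold (vertical axis) against tags per kb of peak (horizontal axis), both on log scales, for all 6943 listed peaks, coloured as MECOM window (red), pericentromeric or heterochromatic (blue) and other (grey). The 7 MECOM peaks and the centromeric peak of 6p11.1 lie apart at the lower right, with over 1000 tags per kb and folds of 1.48 to 2.34.

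The inverse relation of density and fold was not confined to MECOM. Over the 41 other deep peaks, Spearman's rho between tags per kb and fold was -0.657 and Pearson's r was -0.308. The MECOM peaks lay at the dense, low-fold end of that relation.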

How the data were processed

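The members, the groups set beside them and the alternatives were chosen with earlier results of these data known. The authors deposited 1 list of peaks for the ChIP sample, without a header. Per the submitters' processing notes, coordinates refer to hg18. For the aligner, the peak caller and its settings, the sources used here name none. The fourth deposited column was read from its values as a fold, a ratio to a background whose setting is not known. The fifth deposited column was read as the count of tags per peak, unscaled, with a minimum of 5. Total depth is unknown. How duplicates and reads with several matches were handled is not known either, and both would change tag counts.

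Positions are printed from 1. Width, tags per kb and the background index were computed with Python 3.11.15, numpy 2.4.6, pandas 2.3.3 and scipy 1.17.1. Bands came from circlize 0.4.16 under R 4.3.3. Peaks in centromeric, variable or stalk bands or within 1 Mb of a centromere were called pericentromeric or heterochromatic. Sequences not placed on a chromosome have no band and were left out of that class. A deep peak had at least 100 tags. Every peak of the window was described, and outside it the nearest peaks and like groups. With 1 library no test between groups was possible. The window and run functions were tested on simulated data. RefSeq tables of GRCh38.p14 gave the names, strand, order and start distances of genes. Peak sequences were not analysed here.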

Additional observations from a re-analysis of the deposited data

How the results depend on the processing

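The limit of 1000 tags per kb, the runs of peaks, the compact group and the alternatives to them were chosen after seeing the data. The other alternatives were listed earlier, with results of these data already known. The window held 7 peaks with any overlap or with 8 tags or more, and 12 when widened by 500 kb on each side. All 7 also passed 20 and 200 tags, a fold under 5, and 500 and 800 tags per kb. In the rest of the list, 202 peaks had 20 tags or more and 26 had 200 or more, against 41 with 100. A fold under 5 was met by 40, against 1 under 2.5. Limits of 500 and 800 tags per kb were met by 6 and 2, and 1000 by 0 when pericentromeric peaks and sequences beyond chromosomes 1 to 22 and X were left out. The median distance between midpoints of neighbouring peaks, 6023 bp, was 6032 bp between left edges and 6014 bp between right edges. Leaving out each peak in turn gave 5053 to 12046 bp, the highest without peak 4. Runs outside pericentromeric sequence numbered 1 with neighbours within 15 or 50 kb and 7 with 20 tags or more. These changes follow from the limits themselves. The comparisons with exons were not run. No paired analysis was possible because there is 1 ChIP library.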
